A study of Mus musculus with 2 samples.

Results

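The genes described here are 10 of the 31053 genes counted in both libraries, chosen by symbol for their place in the NF-kB pathway. They comprise 4 NF-kB subunits (Nfkb1, Nfkb2, Rel and Relb) and 6 genes that NF-kB is known to switch on and that act back on its signalling (Nfkbia, Nfkbie, Nfkbiz, Tnfaip3, Birc3 and Traf1). All 10 symbols were found in both libraries.

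NF-kB is a family of dimeric transcription factors that is held inactive in the cytoplasm by IkB proteins. In the canonical branch, receptors of the TNF and Toll families activate a kinase complex that has IkB degraded and so frees dimers of RelA or c-Rel with p50, the product of Nfkb1. In the non-canonical branch, TRAF-binding receptors such as OX40, CD40 and the lymphotoxin beta receptor let the kinase NIK accumulate, and the Nfkb2 product is then cut to p52, the partner of RelB. Several of the genes switched on by NF-kB encode its own inhibitors and adaptors, so that their RNA is often read alongside the activity of the pathway. OX40, encoded by Tnfrsf4, is a costimulatory receptor of activated and regulatory T cells.

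Female wild-type C57BL/6 mice aged 10 weeks carried subcutaneous tumours of B16-F10, a mouse melanoma line, and were either given an OX40 agonist or served as controls. CD45-positive, DAPI-negative cells were sorted from the dissociated tumours and profiled in droplets, with 1 library for the OX40-agonist mice and 1 for the control mice. The number of mice behind each library is not stated in the labels used here, nor are the agonist's dose and timing. Depth is counted in UMIs (unique molecular identifiers, 1 per captured RNA molecule). It came to 118059108 UMIs over 8569 barcodes with OX40 agonist (median 7309 per barcode) and to 114026695 UMIs over 7187 barcodes in controls (median 8927). The libraries shared 18 barcode sequences. After filtering, 6986 OX40-agonist and 5989 control cells remained. They were sorted into classes by the summed UMIs of marker genes, none of which is among the 10 genes.

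With 1 library per group no test between the libraries was possible, and no p-value is given. Levels are in CPM: the UMIs of a gene, summed over the cells of a class, for every 1000000 UMIs of that class, with an exact Poisson 95% interval. Ratios of levels carry exact conditional 95% intervals. Both kinds of interval cover counting error only. They take UMIs as independent, so they leave out differences between mice, preparations and cells. A gene was called higher or lower in a class where its level was at least 10 CPM in either arm, the ratio was at least 5 to 4 or at most 4 to 5, and the interval of the ratio left out 1. For log2 ratios 10 CPM was first added to each arm, which pulls in the ratios of low genes.

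Classes were large enough in both libraries, at 50 or more cells each, for CD8 T cells (1164 OX40-agonist and 1489 control cells), regulatory T cells (249 and 150), NK cells (273 and 262), mature migratory dendritic cells (449 and 240), cDC2 (139 and 105), mononuclear phagocytes (2803 and 2278) and melanoma cells (589 and 423). The phagocytes were split further into C1q macrophages (1532 and 1181), Arg1 macrophages (257 and 191) and monocytes (781 and 738), with the rest in none of the 3. Melanoma cells were present despite the CD45 sort, at 8.43% of kept OX40-agonist cells and 7.06% of kept control cells. Defining markers, some of them used by the gates, were present in the classes they name. Foxp3 was at 373 CPM in OX40-agonist and 374 CPM in control regulatory T cells and at 0 in CD8 T cells, where the gate excludes it. Ncr1 was at 354 and 349 CPM in NK cells, and Ccr7 at 3274 and 3588 CPM in mature migratory dendritic cells. Markers of melanoma were found in every leukocyte class, with a summed level of 4 genes between 83.6 and 166 CPM in OX40-agonist classes and between 69.7 and 164 CPM in control classes, against 14910 and 15589 CPM in melanoma cells.

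Sequences next to the start of transcription were taken for the genes in the RefSeq promoter table (build GRCm38.p6), which held 7 of the 10 genes with 10 starts. They are shown because several of the 10 genes are themselves targets of NF-kB. NF-kB dimers bind 10-base kB sites, and both strands of each window, 250 bases before to 50 bases after the start, were searched for the kB consensus and for a stricter form of it, GGGA and TTCC set 2 bases apart. Matches on opposite strands can overlap because the consensus is close to a palindrome. The consensus was found in 8.46% of all 32851 promoter windows in the table, and the stricter form in 1.47%. It was found at 7 of the 10 starts, which belong to Nfkb2, Rel, Nfkbia, Nfkbie and Tnfaip3, and the stricter form at starts of Nfkb2 and Nfkbia. No match was found in the windows of Birc3 and Traf1, which says only that these letters are not in these windows. Below are the 150 bases before the start, in the direction of transcription, with the bases of kB consensus matches in capitals. For Nfkb2, with 3 starts, and Tnfaip3, with 2, the start with the most matches is shown.
Nfkb2 (chr19:46304587-46304736, plus strand): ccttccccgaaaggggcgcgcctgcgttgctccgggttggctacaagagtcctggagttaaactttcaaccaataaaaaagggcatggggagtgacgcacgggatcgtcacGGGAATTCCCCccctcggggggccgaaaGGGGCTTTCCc
Rel (chr11:23770970-23771119, minus strand): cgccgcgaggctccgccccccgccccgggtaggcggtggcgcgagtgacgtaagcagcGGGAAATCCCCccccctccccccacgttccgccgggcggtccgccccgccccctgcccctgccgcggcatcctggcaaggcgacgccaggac
Nfkbia (chr12:55492648-55492797, minus strand): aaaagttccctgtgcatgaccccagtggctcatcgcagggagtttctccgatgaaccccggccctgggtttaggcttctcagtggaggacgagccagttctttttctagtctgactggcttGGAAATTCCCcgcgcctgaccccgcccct
Nfkbie (chr17:45555550-45555699, plus strand): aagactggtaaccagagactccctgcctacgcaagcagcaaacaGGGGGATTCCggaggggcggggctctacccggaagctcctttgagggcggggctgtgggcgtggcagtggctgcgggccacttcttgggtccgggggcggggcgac
Tnfaip3 (chr10:19015411-19015560, minus strand): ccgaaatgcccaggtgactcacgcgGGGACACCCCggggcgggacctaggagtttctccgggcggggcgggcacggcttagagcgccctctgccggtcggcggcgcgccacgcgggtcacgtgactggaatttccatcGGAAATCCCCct

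In the Nfkbia stretch the match lies 29 to 20 bases before the start, on the strand opposite the gene, and it holds the stricter form. Nfkb2 carries overlapping matches from 39 to 29 bases before the start shown and another from 11 to 2 bases before it, and its other 2 starts hold the stricter form. The match 11 to 20 bases after one of these starts (46305695) and that 225 to 216 bases before the other (46305930) are the same bases of the genome, counted once for each start because the windows overlap. In Rel the overlapping matches run from 92 to 82 bases before the start, in Nfkbie a match runs from 106 to 97 bases before it, and in Tnfaip3 matches lie 125 to 116 and 12 to 3 bases before it. A match of letters is a description and was not tested as a binding site.

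**Figure D1:**
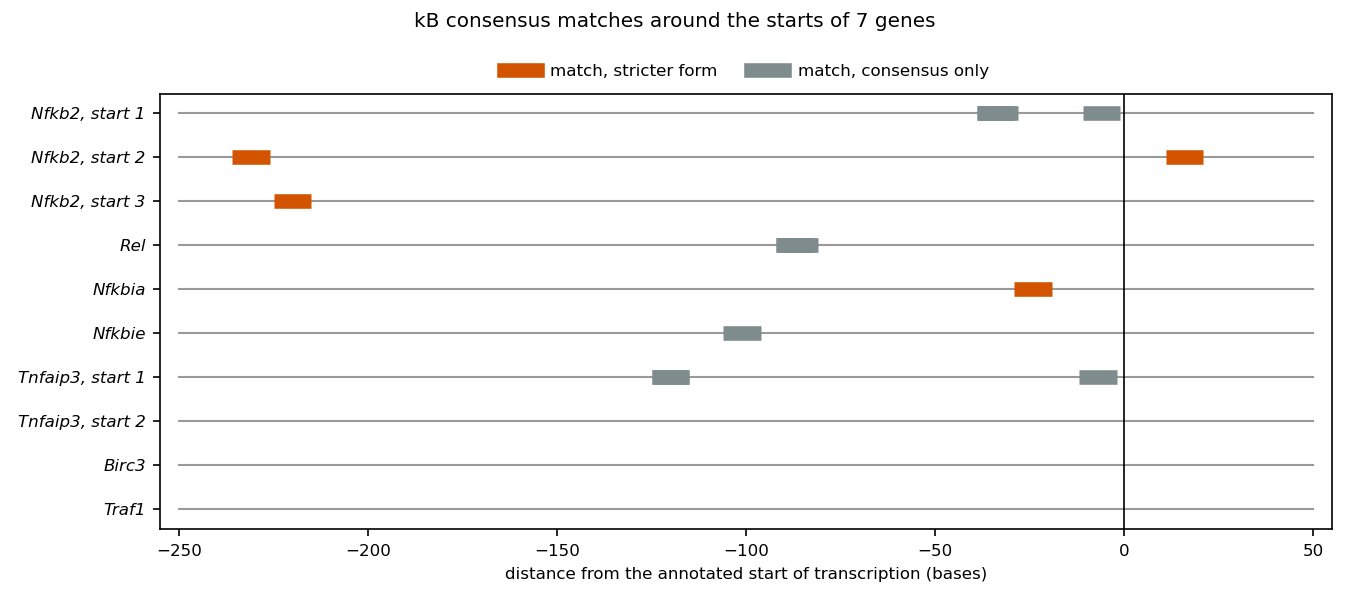
Positions of kB consensus matches on either strand around the 10 annotated starts of 7 genes; the horizontal axis is the distance from the start in bases, each row is 1 start, orange bars hold the stricter form and grey bars the consensus only. Nfkb2 has a match at each of its 3 starts, and the rows of Birc3 and Traf1 have none.

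Levels across the cell classes took a few patterns. Gene positions given below are those of GENCODE M21 on GRCm38. Of the 10 genes, 6 were highest in mature migratory dendritic cells in both libraries, namely Nfkb1, Nfkb2, Rel, Relb, Birc3 and Traf1. Nfkbia and Nfkbiz were highest in Arg1 macrophages, Tnfaip3 was highest in NK cells, and Nfkbie had its highest values in cDC2, monocytes and mature migratory dendritic cells, whose intervals overlapped. Melanoma cells had the lowest level of every one of the 10 genes in both libraries. The order covers 9 classes of at least 50 cells, with phagocytes as their 3 subclasses. Ranks and folds between classes, here and below, refer to these 9 classes only and leave out the smaller ones. Intervals of the first and second class overlapped for Nfkb1, Birc3, Tnfaip3 and Nfkbie, and the interval of Nfkb2 in OX40-agonist melanoma cells overlapped that of Arg1 macrophages.

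Relb (chr7:19606217-19629438, minus strand) encodes the partner of p52 in the non-canonical dimer. It was at 443 CPM (95% interval 422 to 465) in OX40-agonist and 460 CPM (433 to 489) in control mature migratory dendritic cells. NK cells came next at 112 and 119 CPM, so the gap between the first class and the second was wide in both libraries. Against all mononuclear phagocytes the level in mature migratory dendritic cells was 13.3-fold higher in the OX40-agonist library and 12.4-fold higher in the control library, and against cDC2 it was 5.33-fold and 5.63-fold higher. Levels at the other end were 28.3 and 32.7 CPM in Arg1 macrophages, and those overlapped with C1q macrophages at 30.8 and 33.7 CPM.

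Nfkb2 (chr19:46304320-46312385, plus strand), the precursor of p52, was at 172 CPM (159 to 186) in OX40-agonist and 196 CPM (179 to 215) in control mature migratory dendritic cells. Its next classes were lymphocytes. CD8 T cells held 99.3 CPM in the OX40-agonist library and 96.5 CPM in the control library, and regulatory T cells held 92.9 and 102 CPM, with overlapping intervals. Phagocyte subclasses were lower, between 19.1 and 41.1 CPM in the OX40-agonist library and between 27.3 and 54.6 CPM in the control library. Nfkb2 and Relb thus shared their top class, but NK cells stood above CD8 T cells for Relb and below them for Nfkb2.

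Rel (chr11:23736847-23770970, minus strand) encodes c-Rel, a subunit known for its role in lymphocyte and dendritic cell activation. Mature migratory dendritic cells held 992 CPM (960 to 1024) in the OX40-agonist library and 952 CPM (913 to 993) in the control library, and cDC2 followed at 356 and 364 CPM. CD8 T and NK cells had the lowest leukocyte levels of Rel, at 111 and 138 CPM with OX40 agonist and at 110 and 106 CPM in controls. Nfkb1 (chr3:135584655-135691547, minus strand), the precursor of p50, was the flattest of the subunits. It was at 400 and 423 CPM in mature migratory dendritic cells and at 392 and 374 CPM in cDC2, which overlapped in both libraries, and the highest leukocyte class was 3.0-fold the lowest in the OX40-agonist library and 3.40-fold the lowest in the control library. For Relb the same ratio was 15.6-fold and 14.1-fold.

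Traf1 (chr2:34941750-34961772, minus strand), an adaptor of TNF-family receptors, had a range as wide as that of Relb. In mature migratory dendritic cells it was at 840 CPM (810 to 870) with OX40 agonist and 967 CPM (928 to 1008) in controls, followed by regulatory T cells at 485 and 428 CPM and NK cells at 367 and 389 CPM. C1q macrophages held 51.4 and 59.9 CPM, so the level in the highest class was 16.3-fold and 16.1-fold that of the lowest leukocyte class. Birc3 (chr9:7848699-7873186, minus strand), which encodes the ubiquitin ligase cIAP2, was at 104 and 95.9 CPM in mature migratory dendritic cells. Its next classes overlapped with that level in the OX40-agonist library, where NK cells had 99.6 CPM, and in the control library, where monocytes had 80.2 CPM. CD8 T cells had the lowest leukocyte level of Birc3 in both libraries, at 25.2 and 26.9 CPM.

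Nfkbia (chr12:55489410-55492647, minus strand) encodes IkB alpha, the inhibitor that is resynthesised after NF-kB activation. Arg1 macrophages held 2539 CPM (2464 to 2615) in the OX40-agonist library and 3256 CPM (3173 to 3341) in the control library, above monocytes at 1778 and 2053 CPM and mature migratory dendritic cells at 1685 and 1852 CPM. CD8 T cells were lowest among the leukocyte classes of the order at 715 and 760 CPM. Nfkbiz (chr16:55811375-55838899, minus strand), the nuclear protein IkB zeta, had the same top class at 372 and 394 CPM, but mature migratory dendritic cells stood near the bottom of its order at 107 and 102 CPM, 0.369-fold and 0.366-fold the level of all mononuclear phagocytes. Nfkbie (chr17:45555703-45563169, plus strand), which encodes IkB epsilon, had the narrowest range of the 10 genes among leukocytes (2.91-fold with OX40 agonist and 2.82-fold in controls), with 113 CPM in OX40-agonist and 96.0 CPM in control cDC2 and 38.8 and 37.1 CPM in CD8 T cells.

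Tnfaip3 (chr10:19000910-19015657, minus strand) encodes A20, a ubiquitin-editing enzyme that ends NF-kB signalling. It was at 377 CPM (342 to 415) in OX40-agonist and 412 CPM (380 to 447) in control NK cells, followed by Arg1 macrophages at 323 and 324 CPM and regulatory T cells at 276 and 349 CPM. Mature migratory dendritic cells, where the subunits were highest, held 122 and 145 CPM of Tnfaip3, and cDC2 111 and 118 CPM. In melanoma cells the levels were 4.15 and 6.89 CPM for Tnfaip3, 2.65 and 4.38 CPM for Traf1 and 0.597 and 0.915 CPM for Birc3. Those melanoma levels were below any leukocyte class of the order. The lowest of these was 26.6-fold and 17.2-fold higher for Tnfaip3 and 42.2-fold and 29.4-fold higher for Birc3.

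**Figure D2:**
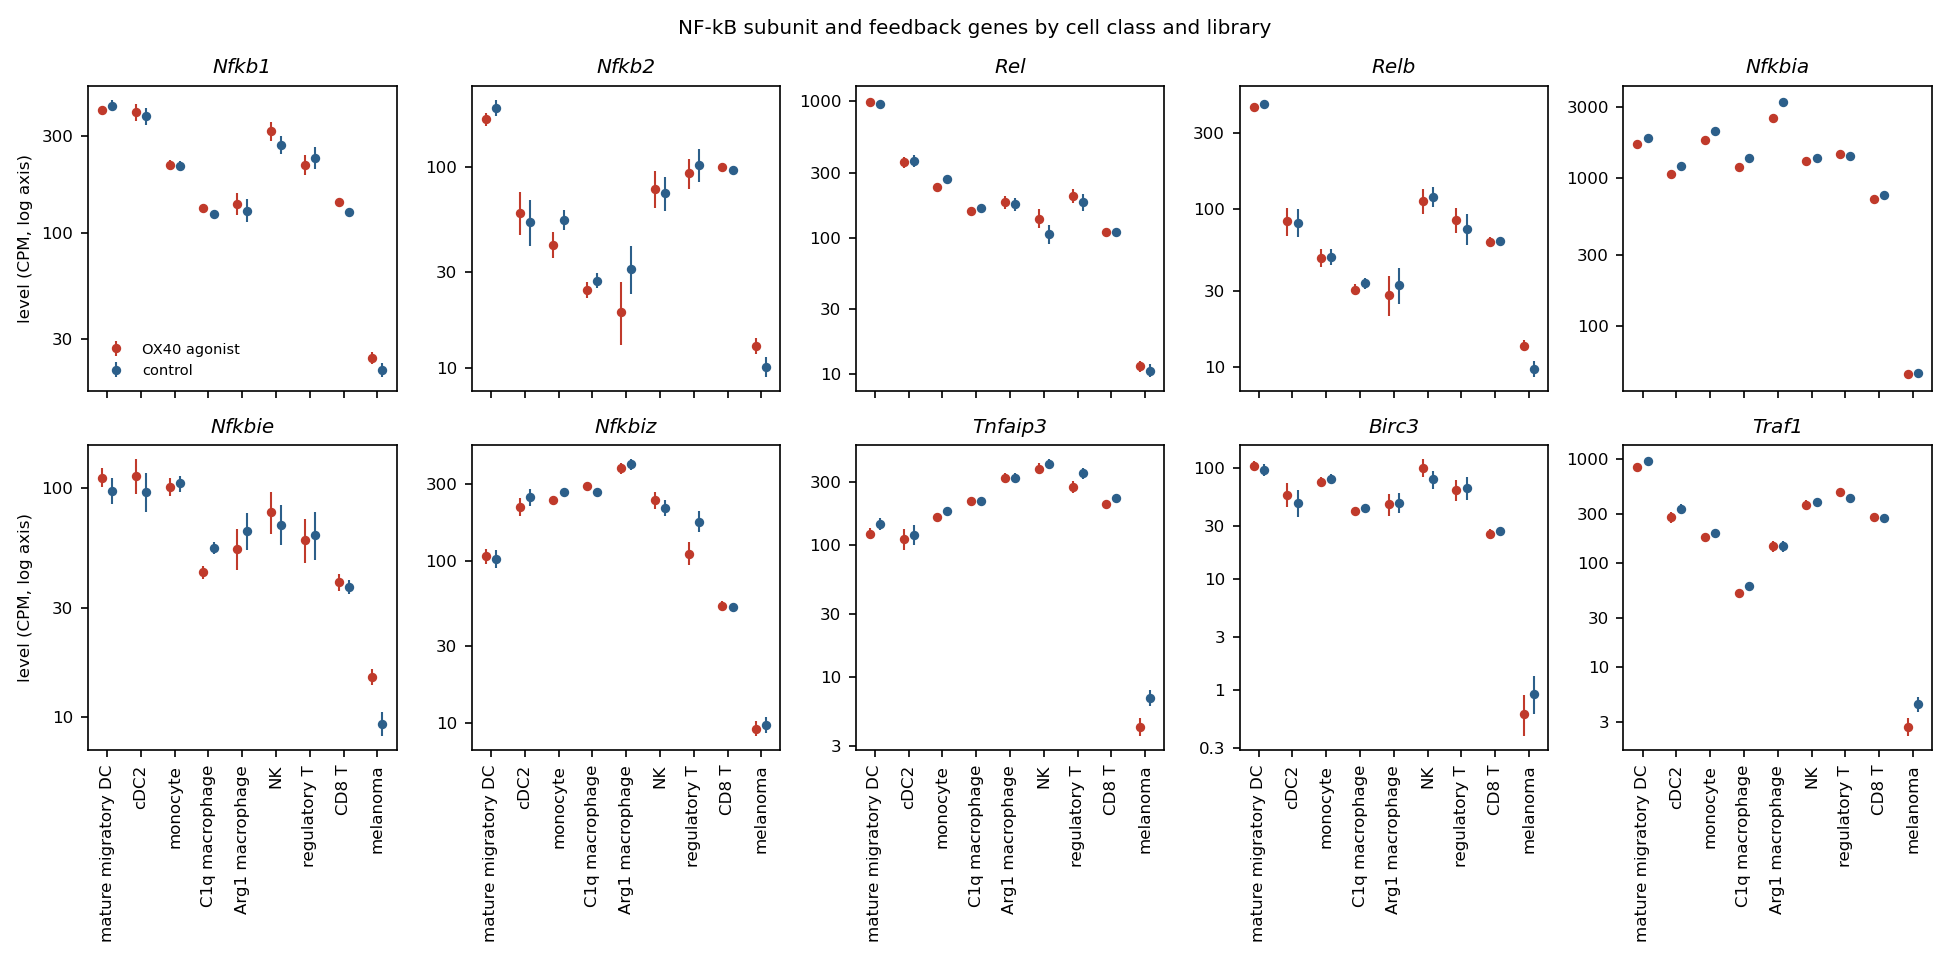
Level of each of the 10 genes (CPM, log axis) in 9 cell classes, with OX40-agonist cells in red and control cells in blue; points are levels from summed UMIs of 1 library each and bars are exact Poisson 95% intervals. The red and blue points lie close together in most classes, and the differences between classes, such as Relb at 443 and 460 CPM in mature migratory dendritic cells against 28.3 and 32.7 CPM in Arg1 macrophages, are far wider than those between libraries.

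The share of cells with a UMI was read with each cell thinned to 1000 UMIs, which removes the effect of depth and left out the shallower cells. Shares and levels were not always in the same order, though the example here rests on 1 library and on overlapping intervals. With OX40 agonist Nfkbia was found in 68.0% of monocytes (64.6 to 71.3, at 1778 CPM) and in 73.4% of regulatory T cells (67.4 to 78.8, at 1432 CPM). In controls the shares followed the levels, at 74.4% of monocytes (2053 CPM) and 66.9% of regulatory T cells (1394 CPM). Rel was found in 275 of 447 OX40-agonist mature migratory dendritic cells (61.5%, exact Clopper-Pearson 95% interval 56.8 to 66.1) and in 142 of 238 control cells (59.7%, 53.1 to 66.0). In melanoma cells, the lowest class, it was found in 7 of 577 (1.21%) and 1 of 404 (0.248%). Without thinning the shares were 96.7% and 97.5% in mature migratory dendritic cells, of median depths 7608 and 8618 UMIs, and 44.5% and 44.7% in melanoma cells, of median depths 65877 and 72640 UMIs. Traf1 was found after thinning in 59.3% and 63.9% of mature migratory dendritic cells and in 0 of 577 and 3 of 404 melanoma cells, where 0 of 577 allows a share of cells with a UMI at that depth of up to 0.637%. At full depth 8.15% and 12.1% of melanoma cells held a Traf1 UMI. Nfkbia was found in 45.1% of OX40-agonist and 49.4% of control CD8 T cells and in 63.6% and 69.0% of mononuclear phagocytes.

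Between the libraries, most of the 10 genes were close to level within a class. In CD8 T cells, where Tnfrsf4 is expressed, none of the 10 was called, beside 1.71% of 6969 genes called higher and 4.41% called lower. Ratios ran from 0.907 for Tnfaip3 (204 CPM with OX40 agonist and 225 CPM in controls) to 1.12 for Nfkb1 (142 and 127 CPM). Nfkb2 was at 99.3 and 96.5 CPM (ratio 1.03, 95% interval 0.962 to 1.1), Traf1 at 277 and 274 CPM (1.01, 0.971 to 1.05), and Relb at 61.9 and 62.9 CPM (0.985, 0.905 to 1.07). The counting intervals of these 3 genes lie inside the fold threshold on both sides. The median log2 ratio was 0.01 over the 10 genes and -0.03 over all genes tested.

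Regulatory T cells had 2 of the 10 genes called lower and none higher, beside 5.43% of 7620 genes called lower and 2.73% called higher. Nfkbiz was at 111 CPM (94.5 to 130) with OX40 agonist and 175 CPM (151 to 202) in controls, a ratio of 0.634 (0.511 to 0.787). Tnfaip3 was at 276 CPM (249 to 305) and 349 CPM (314 to 385), a ratio of 0.792 (0.686 to 0.914). The intervals of the libraries did not overlap for either gene. Traf1 went the other way without being called, at 485 and 428 CPM (1.13, 1.01 to 1.28), and Rel was at 201 and 182 CPM (1.11, 0.921 to 1.33). These cells also differed in other lists: 6 cycling genes summed to 913 CPM with OX40 agonist and 1314 CPM in controls, 9 T cell activation genes to 1736 and 1383 CPM, and the macrophage gene C1qa was at 31.4 and 131 CPM. Another macrophage gene, Arg1, was at 32.8 and 13.8 CPM, and 6 phagocyte markers summed to 65.7 and 68.8 CPM. The part of these in the Nfkbiz and Tnfaip3 ratios was not tested. Nfkbiz was called under each of the 11 alternatives run for this comparison, and Tnfaip3 was no longer called with the mean over cells or at a 1.5-fold threshold.

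NK cells had Rel called higher, at 138 CPM (118 to 162) with OX40 agonist and 106 CPM (89.7 to 124) in controls, a ratio of 1.31 (1.04 to 1.64). That is 1 of 10 genes, beside 3.47% of 7123 genes called higher and 4.06% called lower. The 2 intervals overlapped, and the call was lost with the mean over cells, after thinning to 3000 UMIs and at 1.5-fold. Birc3 was at 99.6 and 78.9 CPM (1.26, 0.965 to 1.65) and was not called.

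Mature migratory dendritic cells, with the highest subunit levels, had none of the 10 genes called, beside 3.09% of 6543 genes called higher and 6.16% called lower. Traf1 had 840 and 967 CPM (0.868, 0.822 to 0.917) and Tnfaip3 122 and 145 CPM (0.844, 0.731 to 0.975), both short of the fold threshold. After thinning to 3000 UMIs these became calls, with log2 ratios of -0.32 for Traf1 and -0.61 for Tnfaip3. The share of all genes called at that depth is not given here. Rel was at 992 and 952 CPM (1.04, 0.987 to 1.1). In cDC2 none was called either, beside 3.07% of 6949 genes called higher and 7.64% called lower, and the ratios ran from 0.829 for Traf1 (277 and 334 CPM) to 1.18 for Nfkbie (113 and 96.0 CPM) and Birc3 (57.4 and 48.5 CPM).

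In mononuclear phagocytes Nfkb2 was the only gene of the 10 called, at 26.5 CPM with OX40 agonist and 33.7 CPM in controls (0.786, 0.714 to 0.864), beside 5.18% of 7032 genes called lower and 5.80% called higher. Of the 10 genes 8 had log2 ratios below 0, with a median of -0.12 over the 10 and 0.01 over all genes tested. Nfkbia was at 1406 and 1655 CPM (0.849, 0.838 to 0.861), Nfkbie at 53.9 and 66.2 CPM (0.814, 0.761 to 0.871) and Traf1 at 83.1 and 98.6 CPM (0.843, 0.799 to 0.891). These 3 had intervals that left out 1 but missed the fold threshold. Nfkbiz and Tnfaip3 had 289 and 280 CPM (1.03) and 216 and 218 CPM (0.992). A list of 14 dissociation stress genes summed to 7897 and 8480 CPM in the same cells, and its part in the ratios was not tested.

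Within the phagocytes the called genes differed by subclass. C1q macrophages had Nfkbie lower, at 43.1 and 54.6 CPM (0.788, 0.721 to 0.862), beside 6.63% of 7164 genes called lower and 7.05% called higher. Arg1 macrophages had 2 genes lower, Nfkbia at 2539 and 3256 CPM (0.780, 0.749 to 0.811) and Nfkb2 at 19.1 and 31.0 CPM (0.616, 0.387 to 0.965), beside 5.41% of 6705 genes called lower and 5.71% called higher. Monocytes had Nfkb2 lower, at 41.1 and 54.6 CPM (0.753, 0.626 to 0.905), beside 4.27% of 6574 genes called lower and 3.79% called higher. Whether the subclasses differ in these ratios was not tested, and Nfkb2 was at 24.5 and 27.3 CPM (0.898, 0.794 to 1.02) in C1q macrophages. The Nfkbie call was lost with at most 5% mitochondrial UMIs, with the mean over cells and after thinning, that of Nfkb2 in Arg1 macrophages with at most 5% mitochondrial UMIs and after thinning (log2 ratios of -0.47 and -0.33, against -0.50), and that of Nfkb2 in monocytes with stricter gates.

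Melanoma cells held low levels, and only 6 of the 10 genes reached 10 CPM in either library. Under that filter, and so not called, Tnfaip3 was at 4.15 and 6.89 CPM (0.603, 0.488 to 0.744). Traf1, also under it, was at 2.65 and 4.38 CPM (0.605, 0.463 to 0.789). The ratio intervals of Nfkbiz and Birc3, likewise under it, held 1. Nfkbie was called higher at 15.0 CPM with OX40 agonist and 9.31 CPM in controls (1.61, 1.40 to 1.86), Relb at 13.6 and 9.67 CPM (1.41, 1.22 to 1.63), and Nfkb2 at 12.9 and 10.2 CPM (1.27, 1.10 to 1.47), beside 4.0% of 7822 genes called higher and 4.79% called lower. For Relb and Nfkbie the control level was itself under the filter of 10 CPM, so these genes were tested through the OX40-agonist library alone. With stricter gates and after thinning to 3000 UMIs the calls of Relb and Nfkb2 were lost and that of Nfkbie held. The log2 ratio of Nfkb2 was 0.18 in the comparison above, 0.14 with stricter gates and 0.41 after thinning, and that of Relb was 0.26, 0.13 and 0.12. Without removal by doublet score the Nfkb2 call was lost too, at 0.18, and after thinning Nfkbia became a call at -0.50. T cell markers (3 genes) summed to 13.7 and 37.9 CPM in these cells and dissociation stress genes to 1497 and 1959 CPM, and their part was not tested.

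**Figure D3:**
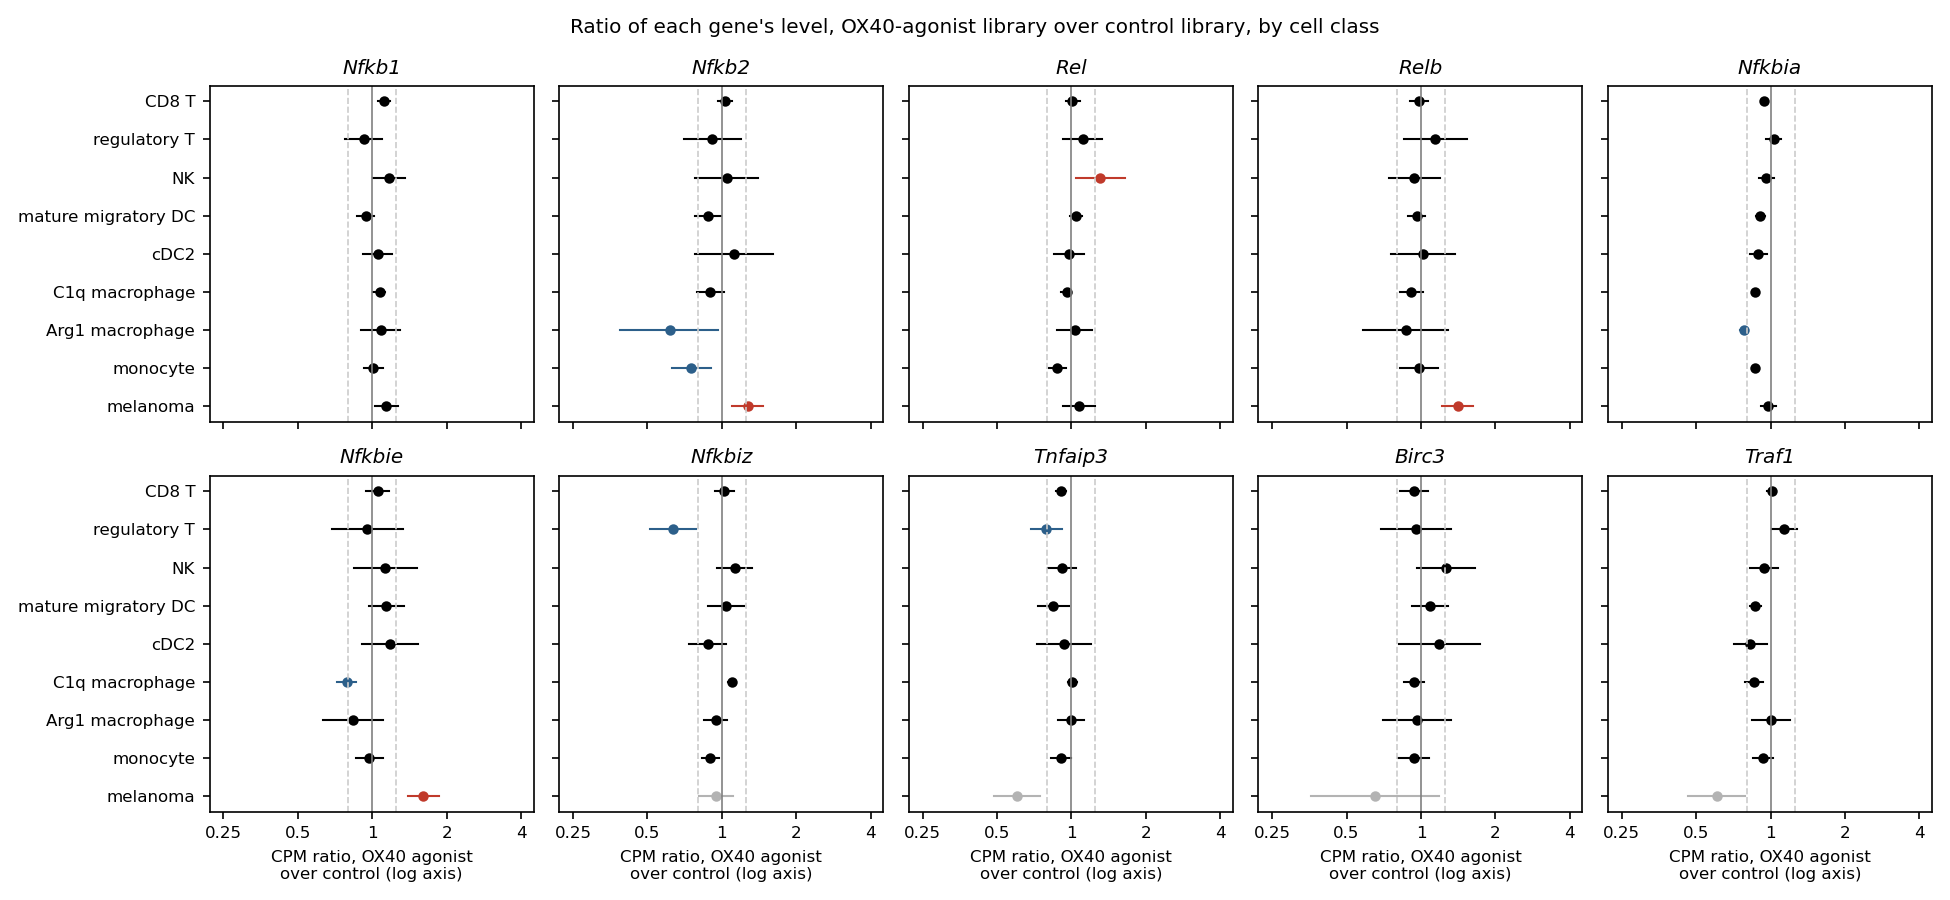
Ratio of the level in OX40-agonist cells to that in control cells (log axis) for each of the 10 genes in 9 cell classes; bars are exact conditional 95% intervals covering counting error only, dashed lines mark the fold threshold either way, red and blue points were called higher and lower, and grey points were under 10 CPM in both libraries. Most points lie between the dashed lines, and those outside include Nfkbiz in regulatory T cells at 0.634 and Nfkb2 in Arg1 macrophages at 0.616.

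Other genes of the pathway, from lists of ligands, receptors, adaptors and kinases, remaining subunits and IkB proteins, brakes and known targets, were read with the same call rule and the same background shares. In CD8 T cells 1 of 7 ligands tested was higher, Il1b at 28.6 and 17.2 CPM (1.66, 1.45 to 1.92), and none of 7 receptors was called. Of all genes in these cells 1.71% were called higher and 4.41% lower. Neutrophil markers summed to 5.94 and 1.18 CPM in these cells, with 3 of 5 genes having a UMI in both libraries, and their part in Il1b was not tested. Known targets had 2 higher and 1 lower of 13 tested, with the anti-apoptotic stress gene Gadd45b at 304 and 218 CPM (1.4, 1.34 to 1.46), the activation marker Cd83 at 35.7 and 24.2 CPM and Bcl2a1d at 125 and 164 CPM. Bcl2a1d has near-identical copies, so its counts are uncertain here and below. In regulatory T cells 3 targets were higher and 3 lower of 14 tested, beside 2.73% of all genes called higher and 5.43% lower. Gadd45b was at 449 and 246 CPM (1.83, 1.58 to 2.12) and the chemokine gene Cxcl2 at 74.8 and 169 CPM (0.443, 0.346 to 0.565). In these regulatory T cells C1qa was at 31.4 and 131 CPM, Arg1 at 32.8 and 13.8 CPM, and 6 phagocyte markers summed to 65.7 and 68.8 CPM. The part of macrophage RNA in the Cxcl2 ratio was not tested. The ligand lymphotoxin alpha, Lta, was at 26.6 and 6.42 CPM (4.14, 1.82 to 11), from 38 and 7 UMIs, and passed the filter of 10 CPM through the OX40-agonist library alone. Tnfrsf9, the receptor 4-1BB, was at 1317 and 1008 CPM (1.31, 1.21 to 1.41), and the A20-binding Tnip3 at 30.0 and 11.9 CPM (2.52, 1.33 to 5.11).

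In mature migratory dendritic cells 3 of 17 adaptors and kinases were lower and none higher, namely Myd88 at 15.0 and 25.1 CPM, Malt1 at 279 and 357 CPM (0.783, 0.714 to 0.859) and Traf6 at 40.6 and 52.7 CPM. All genes leaned the same way, with 6.16% lower and 3.09% higher, and the median log2 ratio was -0.21 for this list and -0.04 for all genes tested. Targets there went both ways, with 4 of 18 higher and 1 lower. The chemokine gene Cxcl1 was at 39.3 and 13 CPM (3.03, 2.03 to 4.65), and Il12b, which encodes a subunit of IL-12, was at 581 and 447 CPM (1.30, 1.21 to 1.4). In cDC2, 3 of 17 adaptors were lower and none higher, beside 7.64% of all genes lower and 3.07% higher. Of 15 targets there 4 were higher and 5 lower, including Cxcl2 at 275 and 135 CPM and Ccl5 at 38.5 and 148 CPM. The cDC2 of the 2 libraries also differed in 6 phagocyte markers (262 and 157 CPM in sum), C1qa (94.2 and 13.5 CPM), Ccr7 (42.8 and 103 CPM) and 6 cycling genes (93.4 and 321 CPM in sum). The dissociation gene Hspa1a was at 280 and 91.6 CPM (3.06, 2.44 to 3.86). The part of these in the target values was not tested.

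Mononuclear phagocytes had 5 of 16 targets lower and 1 higher, beside 5.18% of all genes called lower and 5.80% higher. The median log2 ratio was -0.01 for this list and 0.01 for all genes tested. Irf1 was at 126 and 184 CPM (0.685, 0.657 to 0.715), Bcl2a1d at 54.0 and 115 CPM (0.467, 0.440 to 0.496), and Cxcl1, the target that was higher, at 406 and 279 CPM (1.46, 1.41 to 1.5). The phagocyte subclasses went both ways, as Cxcl1 was higher in C1q macrophages (422 and 273 CPM) and Arg1 macrophages (812 and 520 CPM) and lower in monocytes, at 110 and 142 CPM (0.777, 0.694 to 0.869). Of 10 receptors tested in all mononuclear phagocytes 2 were higher and 2 lower. Cd40 was lower at 46.6 and 70.3 CPM (0.663, 0.619 to 0.711). Tnfrsf4 was higher at 16.3 and 9.74 CPM (1.67, 1.44 to 1.95), and Tnfrsf11a at 41.9 and 30.6 CPM (1.37). Tnfrsf4 passed the filter of 10 CPM there through the OX40-agonist library alone. Of 15 adaptors and kinases 2 were lower and none higher, with Malt1 at 181 and 265 CPM (0.681, 0.657 to 0.705). Of 4 remaining subunits and IkB proteins 1 was lower and none higher. This was Bcl3, a nuclear IkB protein, at 23.0 and 30.3 CPM (0.757, 0.683 to 0.838). Melanoma cells had 2 of 9 targets higher and 4 lower, beside 4.0% of all genes called higher and 4.79% lower. The median log2 ratio was -0.07 for this list and 0.03 for all genes tested. Irf1 was at 24.5 and 58.6 CPM in melanoma cells and Ccl5 at 34.9 and 104 CPM. T cell markers there summed to 13.7 and 37.9 CPM and Ptprc, the gene of CD45, was at 3.51 and 10.6 CPM, and their part was not tested. In NK cells 4 of 13 targets were higher and none lower, beside 3.47% of all genes called higher and 4.06% lower. The median log2 ratio was -0.10 for this list and -0.02 for all genes tested. Higher targets there included Ccl5 at 16040 and 11400 CPM (1.41, 1.38 to 1.44), Gadd45b at 291 and 197 CPM (1.47) and Ier3 at 19.4 and 4.15 CPM. Ier3 had 22 and 6 UMIs there and passed the filter through the OX40-agonist library alone.

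Tnfrsf4 itself was found, after thinning to 1000 UMIs, in 83.1% of OX40-agonist and 81.1% of control regulatory T cells and in 26.0% and 28.9% of CD8 T cells. Mature migratory dendritic cells had it in 8.5% and 7.56% and NK cells in 0.733% and 1.15%, with melanoma cells, which should lack it, at 0.693% and 0.743%. Its level in CD8 T cells was 459 CPM (448 to 471) with OX40 agonist and 436 CPM (428 to 445) in controls. Nearly all regulatory T cells held a Tnfrsf4 UMI, with 6 OX40-agonist and 2 control cells lacking one, so only CD8 T cells and T cells outside the CD8, CD4 and Foxp3 gates could be split by it.

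CD8 T cells with a Tnfrsf4 UMI differed from those without in 5 of the 10 genes in each library. The OX40-agonist library had 794 positive and 370 negative cells, and the control library 1094 and 395. Nfkb2 was at 108 CPM in positive and 53.2 CPM in negative OX40-agonist cells, a ratio of 2.03 (1.69 to 2.46), and at 103 and 53.0 CPM in positive and negative control cells, a ratio of 1.94 (1.64 to 2.30). Traf1 was at 294 and 185 CPM with OX40 agonist (1.59, 1.44 to 1.76) and at 279 and 234 CPM in controls (1.19, 1.10 to 1.29), which was not called. In the OX40-agonist library 2 genes were thus higher, beside 20.2% of 7190 genes, and 3 lower, beside 19.0%, and in the control library 1 was higher, beside 20.4% of 7328 genes, and 4 lower, beside 20.6%. With such shares of all genes called each way, the number of calls among the 10 is near the background.

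Lower in positive cells of both libraries were Nfkb1, Nfkbiz and Tnfaip3. Tnfaip3 was at 189 and 279 CPM with OX40 agonist (0.680, 0.623 to 0.742) and at 209 and 337 CPM in controls (0.619, 0.577 to 0.665). Nfkbiz was at 47.9 and 77.9 CPM (0.616, 0.521 to 0.731) and at 48.4 and 74.2 CPM (0.652, 0.561 to 0.760). Birc3 was not called with OX40 agonist, at 25.3 and 24.7 CPM (1.03, 0.773 to 1.38), and was called lower in controls, at 25.3 and 38.2 CPM (0.664, 0.538 to 0.825). Relb, the partner of the Nfkb2 product, was at 62.2 and 60.4 CPM with OX40 agonist and at 62.0 and 69.3 CPM in controls, and was not called in either.

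Depth differed strongly between the arms of this split. Positive cells had a median of 13544 UMIs with OX40 agonist and 15755 in controls, and negative cells 5088 and 5913. Each cell was therefore thinned to 3000 UMIs and its Tnfrsf4 status was read from the UMIs left, which gave 583 positive and 558 negative OX40-agonist cells and 782 and 681 control cells. Nfkb2 was then at 102 and 65.1 CPM with OX40 agonist (1.56, 1.22 to 2.00) and at 104 and 69.0 CPM in controls (1.5, 1.21 to 1.86). Traf1 was at 316 and 225 CPM (1.4, 1.23 to 1.60) and at 328 and 243 CPM (1.35, 1.20 to 1.51). Tnfaip3 was at 222 and 284 CPM (0.780, 0.681 to 0.894) and at 245 and 319 CPM (0.767, 0.684 to 0.859). These 3 genes were called in both libraries at equal depth, whereas Nfkb1, at 0.941 and 0.989, was called in neither and Nfkbiz in the OX40-agonist library only. Birc3 was called higher with OX40 agonist, at 29.7 and 18.5 CPM (1.61, 1.01 to 2.59), and was not called in controls, at 25.6 and 33.8 CPM (0.757, 0.527 to 1.09). The share of all genes called in this thinned split is not given here. Whether these calls exceed the background at equal depth was therefore not tested. Negative cells rose from 370 to 558 with OX40 agonist and from 395 to 681 in controls. The thinned negative arm thus also holds cells with a Tnfrsf4 UMI at full depth.

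Cycling cells were also unevenly spread. A UMI of Mki67, Top2a, Birc5 or Stmn1 was present in 81.0% of positive and 45.4% of negative OX40-agonist cells and in 85.8% and 51.1% of control cells. Without those cells Nfkb2 was at 117 and 55.4 CPM with OX40 agonist (2.11, 1.54 to 2.94) and at 122 and 56.1 CPM in controls (2.18, 1.62 to 2.97). Traf1 had ratios of 1.47 and 1.46, Tnfaip3 of 0.795 and 0.714 and Nfkbiz of 0.501 and 0.538. Rel was called higher with OX40 agonist only (1.34, and 1.10 in controls). Nfkbie was called higher (1.61) and Nfkb1 lower (0.598) in controls only. These cells were not thinned, and the share of all genes called among them is not given here. The part of cycling in the ratios was not tested. The 14 dissociation stress genes summed to 4002 and 4433 CPM in positive and negative OX40-agonist cells and to 3914 and 4880 CPM in control cells, and 11 of 14 were called lower in positive cells of each library. Their part in the lower Tnfaip3 and Nfkbiz was not tested.

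Other receptors and adaptors differed along the same split. The receptors Tnfrsf9 (4-1BB) and Tnfrsf18 (GITR) were at 834 and 267 CPM and at 421 and 201 CPM in positive and negative OX40-agonist cells, and at 764 and 285 CPM and 385 and 178 CPM in control cells. Among adaptors and kinases 1 of 18 was higher and 5 were lower with OX40 agonist, and none was higher and 7 were lower in controls. Of all genes 20.2% were higher and 19.0% lower with OX40 agonist and 20.4% higher and 20.6% lower in controls, and no result about the list is read from these counts. Malt1 was at 66.3 and 145 CPM (0.458, 0.403 to 0.522) and at 69.5 and 172 CPM (0.404, 0.364 to 0.449). Map3k14, which encodes NIK, was at 8.01 and 13.6 CPM (0.588, 0.391 to 0.906) and at 7.31 and 13.4 CPM (0.544, 0.379 to 0.80). Its positive cells were under 10 CPM in both libraries, so it was tested through the negative cells alone. These values were not thinned, and the depth gap above holds for them too.

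T cells outside the CD8, CD4 and Foxp3 gates gave the same direction for Nfkb2 and Tnfaip3. This class is mixed and can hold cells with Foxp3, Cd4, Cd8a or Cd8b1 UMIs. Its positive cells had 1324 CPM of Tnfrsf4 with OX40 agonist and 1287 CPM in controls, against 548 and 498 CPM in positive CD8 T cells. In 149 positive and 70 negative OX40-agonist cells Nfkb2 was at 91.3 and 51.9 CPM (1.76, 1.05 to 3.13), and in 110 and 71 control cells at 95 and 56.1 CPM (1.69, 1.03 to 2.96). Rel, which was not called in CD8 T cells, was at 199 and 122 CPM (1.63, 1.16 to 2.34) and at 158 and 106 CPM (1.49, 1.03 to 2.22). Tnfaip3 was at 276 and 394 CPM (0.702, 0.570 to 0.868) and at 293 and 530 CPM (0.553, 0.460 to 0.668). In all 3 genes were higher and 2 lower with OX40 agonist, beside 14.2% of 7710 genes higher and 8.20% lower, and 2 were higher and 3 lower in controls, beside 14.7% of 7729 genes higher and 9.25% lower. The difference between these cells and CD8 T cells was not tested. Cycling genes summed to 1188 and 443 CPM in positive and negative OX40-agonist cells and to 1414 and 68.6 CPM in control cells, and dissociation stress genes to 4640 and 7510 CPM and to 4765 and 7289 CPM. Their part in these ratios was not tested.

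Several of these calls were lost under other settings, most of which leave fewer cells or UMIs. With OX40 agonist the log2 ratio of Nfkb2, 0.71, was no longer called at 0.70 with at most 5% mitochondrial UMIs, at 0.96 after thinning, at 1.04 with status after thinning and at 0.46 without cycling cells. In controls Nfkb2, at 0.67, was no longer called at 0.44 without removal by doublet score, at 0.59 with at most 5% mitochondrial UMIs, at 0.50 with stricter gates and at 0.88 without cycling cells. Tnfaip3 in OX40-agonist cells, at -0.50, was no longer called at -0.28 with stricter gates, at -0.19 with the mean over cells and at 0.00 without cycling cells. Rel in controls, at 0.54, was no longer called at 0.45 without removal by doublet score, at 0.48 with at most 5% mitochondrial UMIs and at 0.56 with status after thinning.

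The library ratio was set beside the split in CD8 T cells to ask whether the agonist library differed more where the receptor was detected. Traf1 was at 294 CPM with OX40 agonist and 279 CPM in controls in positive cells (1.05) and at 185 and 234 CPM in negative cells (0.790). The quotient of the 2 ratios was 1.33 (1.17 to 1.52). Intervals of quotients are normal approximations on the log scale, not exact ones, and also cover counting error only. Nfkb2 had 108 and 103 CPM in positive cells and 53.2 and 53.0 CPM in negative cells, with a quotient of 1.05 (0.820 to 1.35). Besides Traf1, the interval left out 1 for Birc3 (1.55, 1.09 to 2.19) and Nfkbia (1.08, 1.01 to 1.16). With status read after thinning, Traf1 had a quotient of 1.04 (0.875 to 1.24) and Nfkbia 1.1 (0.992 to 1.21), and only Birc3 kept an interval without 1, at 2.12 (1.21 to 3.72). Birc3 was below 40 CPM in every arm. After thinning it had 52 and 31 UMIs in positive and negative OX40-agonist cells and 60 and 69 UMIs in control cells.

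**Figure D4:**
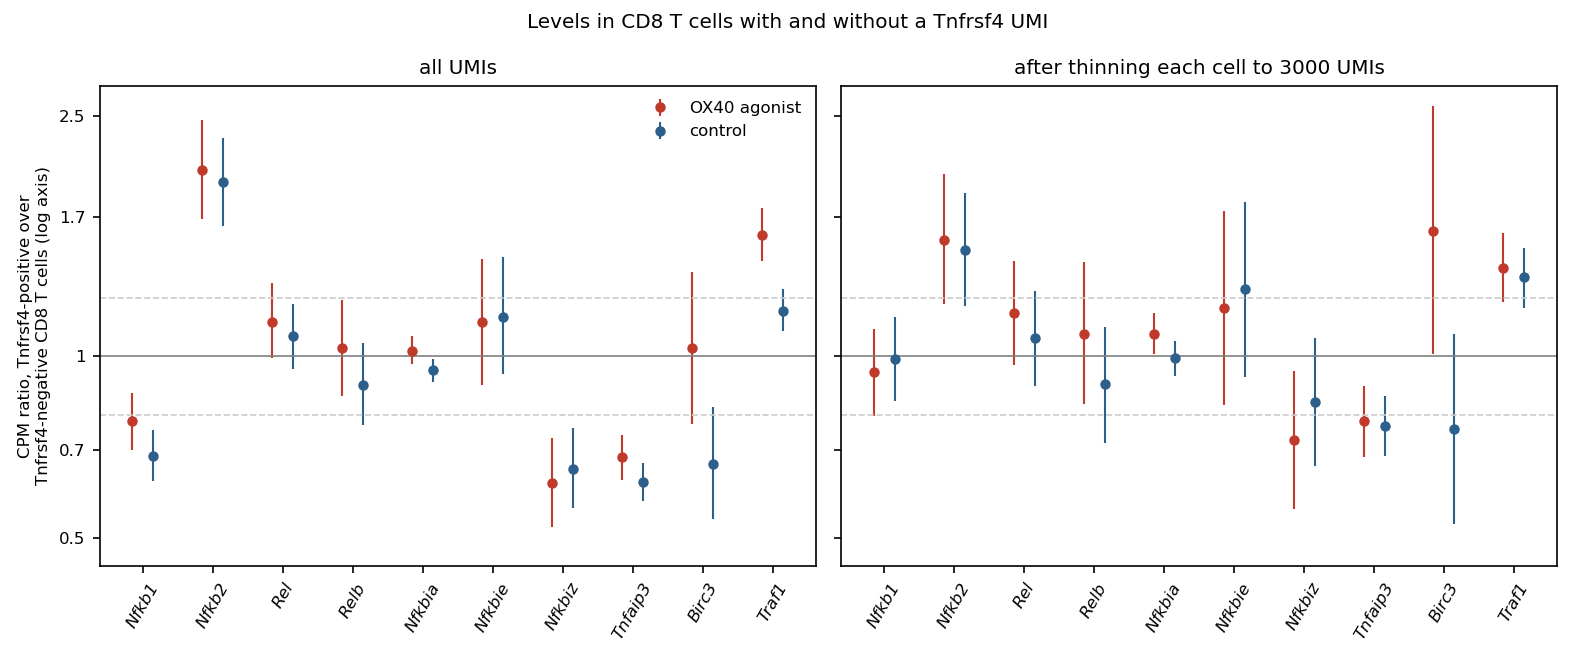
Ratio of the level in Tnfrsf4-positive to that in Tnfrsf4-negative CD8 T cells (log axis) for each of the 10 genes, with the OX40-agonist library in red and the control library in blue, from all UMIs (left) and with each cell and its Tnfrsf4 status thinned to 3000 UMIs (right); bars are exact conditional 95% intervals and dashed lines mark the fold threshold. Nfkb2 stays above the upper line in both panels, at 2.03 and 1.94 on the left and 1.56 and 1.5 on the right.

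Across the 9 classes and both libraries, 18 points in all, the 10 genes did not share a single profile. The correlations are of log2(CPM + 10) and are descriptions: the points share libraries in sets of 9, and the low melanoma levels raise most of them. Without melanoma, over 16 points, Nfkb2 had a Pearson r of 0.90 with Traf1 and 0.87 with Relb, and Nfkb1 of 0.81 with Nfkbie. Nfkbiz ran opposite to Nfkb2 (r = -0.77) and Tnfaip3 opposite to Rel (r = -0.71). Among 4977 other genes of at least 50 CPM in a class, the closest profiles were picked by r over all 18 points, melanoma included. The r values printed are those without melanoma, and the closest genes without melanoma were not sought. Closest to Relb were Ddx6, Glipr2 and N4bp2l1 (0.97, 0.95 and 0.95). For Nfkb1 the closest genes were Gpr132, Sp110 and Cd47 (0.94, 0.87 and 0.85) and for Traf1 Ankrd44, Fau and Crybg1 (0.93, 0.89 and 0.88). For Nfkb2 they were Myl6, Sri and Mob3a (0.96, 0.96 and 0.92), for Rel Crip1, Actb and Rftn1 (0.96, 0.90 and 0.93) and for Birc3 Skil, Ppp1r15a and Clec2d (0.89, 0.88 and 0.83). For the inhibitors they were Srgn, Pim1 and Cyba for Nfkbia (0.77, 0.74 and 0.69), Malt1, Sp110 and Gsdmd for Nfkbie (0.82, 0.84 and 0.86), Ccnl1, Ell2 and Iqgap1 for Nfkbiz (0.87, 0.86 and 0.86) and Junb, Xist and Rgs2 for Tnfaip3 (0.67, 0.77 and 0.66).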

How the data were processed

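The deposited values are raw UMI counts of each gene in each barcode, made by the authors with Cell Ranger 3.1.0, per the file headers, on build mm10, per the submitters' processing notes. A barcode passed with 500 or more UMIs, 200 or more genes and no more than 10% mitochondrial UMIs, which left 7500 from OX40-agonist and 6354 from control mice. As likely doublets, those scoring highest in a Scrublet-style simulation were dropped, at 0.8% for each 1000 barcodes (514 and 365). Cells were classed by summed marker UMIs per 10000 UMIs of the cell, with a minimum of marker UMIs per class. The thresholds were set on the files. Barcodes that passed gates of 2 or more lineages (318 and 302) or of none (485 and 419) stayed out of the classes. CD8 T cells held at least 2 Cd8a or Cd8b1 UMIs and no Cd4 or Foxp3 UMI. Regulatory T cells held at least 1 Foxp3 UMI and no Cd8a or Cd8b1 UMI. Conventional CD4 T cells held at least 1 Cd4 UMI and none of Foxp3, Cd8a or Cd8b1. All other T cells, such as those with both Foxp3 and Cd8a UMIs, formed the class outside these gates.

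Counts were summed per class and library and scaled to CPM. No test was possible with 1 library per group. The 10 genes and the pathway lists were chosen with earlier results of these data known. Named genes are the 10, up to 3 called genes per list with the largest absolute log2 ratio in a class, some of which are left out here, and the 3 genes with the closest profile. Others are marker genes, Map3k14, and Tnfrsf9, Tnfrsf18 and Il12b, which were chosen for their role. The call function was checked on simulated counts. Alternatives changed the doublet removal, the filters, the gates, the scaling, the depth, the pseudocount and the fold. Gene IDs were matched to GENCODE M21 on GRCm38, the same build as mm10. Analyses used Python 3.11.15, numpy 2.4.6, scipy 1.17.1, pandas 2.3.3, scikit-learn 1.9.0 and matplotlib 3.10.9.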

Additional observations from a re-analysis of the deposited data

Results flagged for a closer look

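Nfkb2 had log2 ratios between the libraries of opposite sign in different classes, 0.18 in melanoma cells against -0.26 in mononuclear phagocytes, -0.50 in Arg1 macrophages and -0.34 in monocytes. Each of these passed the fold and interval rule within its class, and the difference between the classes was not tested. The melanoma call was lost with stricter gates, after thinning and without removal by doublet score. That in Arg1 macrophages was lost with at most 5% mitochondrial UMIs and after thinning, and that in monocytes with stricter gates. At 1.5-fold the calls in melanoma cells, mononuclear phagocytes and monocytes were lost.

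Nfkbie likewise had a log2 ratio of 0.37 in melanoma cells and -0.28 in C1q macrophages, and this difference was not tested. Its level in melanoma cells was 15.0 CPM with OX40 agonist and 9.31 CPM in controls, so it was tested there through the OX40-agonist library alone. The call in C1q macrophages was lost with at most 5% mitochondrial UMIs, with the mean over cells, after thinning and at 1.5-fold.

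Barcodes that passed the gates of 2 or more lineages, 318 from OX40-agonist and 302 from control mice, were in no comparison. There, 5 of the 10 genes were higher in the OX40-agonist library, with log2 ratios of 0.45 for Nfkb1, 0.41 for Rel, 0.37 for Nfkbia, 0.37 for Nfkbiz and 0.35 for Traf1. Of 7675 genes tested in these barcodes 7.79% were called higher and 8.95% lower, and the median log2 ratio was -0.04. The mixture of lineages in these barcodes was not resolved.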

How the results depend on the processing

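Of 1660 values of single genes under the alternatives, 1564 kept their direction and side of the call, 62 were no longer called, 31 became calls and 3 reversed, and 151 of 183 counts moved by no more than 1.5 times. Regulatory T cells kept 1 of 2 called genes with the mean over cells and at 1.5-fold. NK cells had 0 called with the mean over cells and at 1.5-fold and 3 with stricter gates, the added ones being Nfkb1 (log2 ratio 0.34) and Nfkbie (0.42). Mature migratory dendritic cells had 1 with the mean over cells and 2 after thinning to 3000 UMIs, and cDC2 had 2 and 1. At 1.5-fold, phagocytes, C1q macrophages and monocytes had 0, and Arg1 macrophages and melanoma cells 1. Melanoma cells also had 1 with stricter gates and 5 with no filter on low values, the added ones being Tnfaip3 and Traf1, both lower. C1q macrophages had 0 with at most 5% mitochondrial UMIs, with the mean over cells and after thinning, Arg1 macrophages 1 with at most 5% mitochondrial UMIs and after thinning, and monocytes 0 with stricter gates. In the split of CD8 T cells by Tnfrsf4, OX40-agonist cells had 3 at 1.5-fold and control cells 3 with status after thinning. In the other T cells, a class added after seeing the data, OX40-agonist cells had 3 after thinning, with status after thinning and without cycling cells, and control cells had 3 without removal by doublet score and at 1.5-fold and 2 with at most 5% mitochondrial UMIs and with stricter gates. There Tnfaip3 reached 0.00 (log2) in OX40-agonist cells without cycling cells, and Nfkbiz 0.01 with the mean over cells and 0.04 without cycling cells in control cells. The number of quotients whose interval left out 1 was 1 with status after thinning, against 3. The cause of these changes was not tested. With the mean over cells a call rests on the fold alone. No paired analysis was possible because each group is 1 library. Differences between mice cannot be told apart from those of treatment, and fewer than 50 cells in a class limited it to levels.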

Other observations

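In classes with under 50 cells in a library, levels of the 10 genes were read without a comparison. Neutrophils, with 47 OX40-agonist and 18 control cells, held 6425 CPM (5798 to 7100) and 5999 CPM (5131 to 6972) of Nfkbia and 1472 CPM (1181 to 1814) and 1376 CPM (979 to 1881) of Nfkbiz, above every larger class. Their Nfkb1 counts were near 0, with 1 UMI in the OX40-agonist library and none in the control library. B or plasma cells, 46 and 16 in number, held 133 CPM (96.2 to 180) and 103 CPM (55 to 177) of Birc3 and 261 CPM (207 to 323) and 223 CPM (148 to 322) of Nfkbia. In cDC1, 84 and 46 cells, Rel was at 259 CPM (231 to 288) and 213 CPM (187 to 241) and Relb at 44.4 and 41.0 CPM. Conventional CD4 T cells, 80 and 45, held 1474 CPM (1361 to 1595) and 1067 CPM (954 to 1189) of Nfkbia and 513 CPM (447 to 586) and 400 CPM (333 to 478) of Traf1. Barcodes that passed no gate had Tnfaip3 at 91.6 CPM with OX40 agonist and 130 CPM in controls (0.705, 0.613 to 0.812).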
